A study of Arabidopsis thaliana with 6 samples.

Results

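WRKY and NAC factors are 2 large families of plant transcription factors, and their transcripts were followed in roots exposed to excess boron. Members were the measured genes whose symbol or synonym is WRKY, NAC or ANAC followed by a number, with or without the prefix AT. Of 13355 genes with their own probe set, 8 met this rule: WRKY1, WRKY6, WRKY20, WRKY22, WRKY42, WRKY47 and WRKY53 of the WRKY family, and NAC014 of the NAC family. WRKY1 is listed under the symbol ZAP1 and was found through its synonym. Among the probe sets named for 1 gene, each of the 8 has a single one. The RefSeq gene table of the TAIR10.1 assembly holds 72 WRKY and 100 NAC loci under such names, so 7 and 1 of them are described here. The other loci were not analysed here, and 8730 probe sets have no gene name that some of them could carry, so the 8 genes do not stand for their families.

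The samples were roots of Arabidopsis thaliana seedlings, moved at 5 days of age to half-strength Murashige and Skoog medium with 5 mM boric acid, or to that medium alone, and taken at 12 h. Boron is a micronutrient that is toxic in excess. Each group had 3 arrays, numbered 1 to 3 and labelled as biological replicates. All were Affymetrix ATH1 arrays, for which the starting material was total RNA. The sources used here name no mutation, transgene or accession line, and do not say how many plants went into an array.

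WRKY factors bind the W box, a short element in the promoters of many stress genes, through a zinc-finger domain. They are grouped by the number of these domains and the form of the zinc finger, and many act in defence, senescence and nutrient responses. NAC factors share an N-terminal DNA-binding domain and act in the root cap, in xylem, in senescence and in stress responses. Some NAC factors carry a membrane anchor and act in the nucleus only after release.

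After 12 h in boric acid, WRKY1 rose 1.54-fold, a log2 change of 0.63 with a 95% confidence interval from 0.38 to 0.88, and WRKY6 was 1.71-fold higher, a log2 change of 0.78 with an interval from 0.16 to 1.39. WRKY1 passed the threshold, an adjusted p of 0.05 over all probe sets in limma, and WRKY6 passed it only with the replicate number as a block. The other 5 WRKY genes and NAC014 did not pass in either fit, and no member was called lower. Thus 1 of 8 members was called, against 2.71% of all genes (1.62% higher and 1.09% lower), and 2 of 8 with the block, both higher, against 7.84% of all genes (4.63% higher and 3.20% lower). WRKY1 and WRKY6 were also the members whose boric acid arrays all lay above all control arrays. Such separation in either direction was found for 20.0% of all genes, and upwards for 10.1%, so with 8 members these counts rest on 1 or 2 genes. At an unadjusted p under 0.05 the same 2 members were called, both higher, against 14.9% of all genes. In whole roots, a changed level per cell and a changed share of cells that carry a transcript cannot be told apart.

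**Figure D1:**
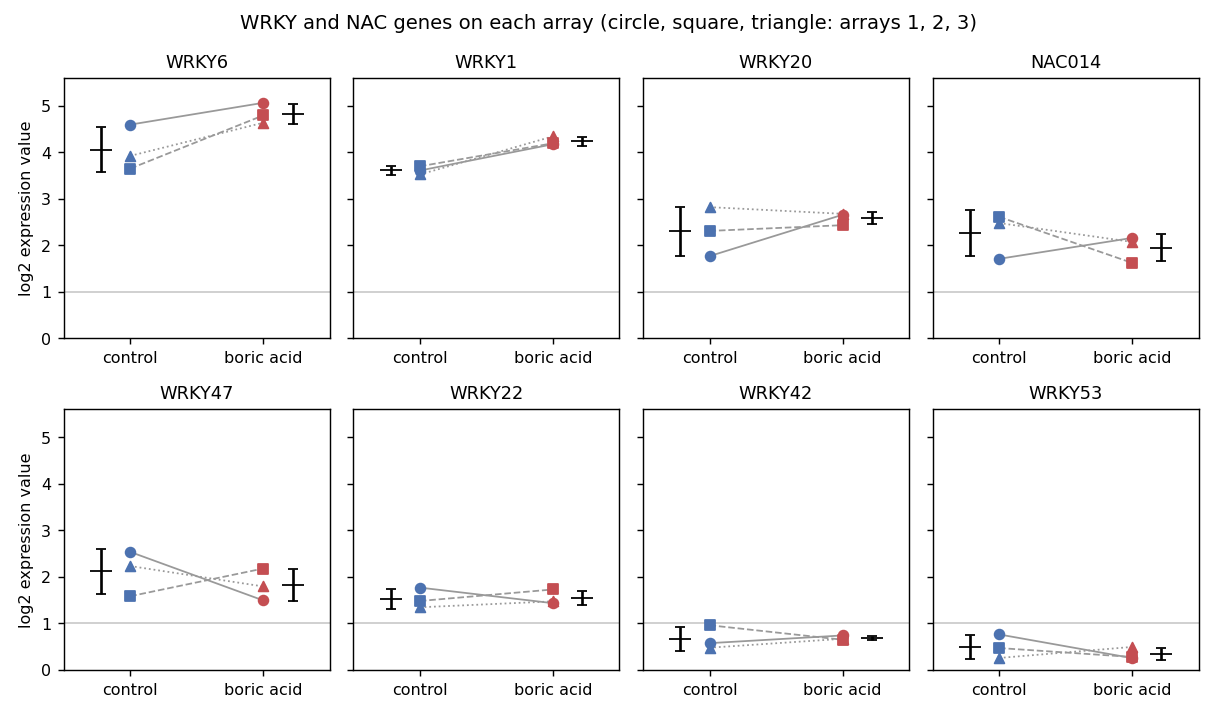
Log2 expression values of the 8 members on each of the 6 arrays, with lines joining arrays of the same number, and means with SD (n = 3) beside the points. The boric acid arrays lie above all control arrays in WRKY1 and WRKY6, the groups overlap in the other 6, and the grey line at 1 is the level above which a gene was counted as expressed.

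WRKY1 belongs to group I, whose members carry a pair of WRKY domains, and in Arabidopsis it has been linked to nitrogen and light signalling. Its log2 expression values were 4.17, 4.19 and 4.34 on boric acid arrays 1, 2 and 3, and 3.60, 3.69 and 3.52 on control arrays 1, 2 and 3. The groups did not overlap, and the lowest boric acid array lay 0.47 above the highest control array. The means were 4.23 ± 0.09 (SD, n = 3) in boric acid and 3.61 ± 0.09 in control roots. The log2 change was 0.63 ± 0.10 (SE), with an adjusted p of 0.0334 in limma and of 0.0327 with the replicate block. Same-numbered arrays differed by 0.57, 0.50 and 0.82 on the log2 scale. All 3 pairs were higher in boric acid, as any pairing must be when groups do not overlap.

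In the alternative fits the change of WRKY1 lay between 0.53 and 0.69. Since its groups do not overlap, no choice of arrays can turn the sign. It lost the call in 5 of the 6 fits without 1 array, with adjusted p from 0.0792 without boric acid 1 to 0.128 without boric acid 3, and kept it without control 1 (adjusted p = 0.0493). It also lost the call when only probe sets with a mean over 1 were tested (adjusted p = 0.0593) and when limma's moderation followed the trend of variance with level and was made robust (adjusted p = 0.114). The spread within its groups was low, with a residual SD of 0.09, and 14.96% of all genes had a lower one; both of these settings raised the SE, to 0.15 and 0.18.

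WRKY6, of group IIb, is known in Arabidopsis for senescence and defence, for repressing the phosphate exporter gene PHO1, and for root growth when boron is scarce. Its log2 expression values were 5.06, 4.79 and 4.63 on boric acid arrays 1, 2 and 3, and 4.59, 3.65 and 3.92 on control arrays 1, 2 and 3. The groups did not overlap, but control 1 came within 0.04 of the lowest boric acid array. The means were 4.83 ± 0.22 (SD, n = 3) in boric acid and 4.05 ± 0.49 in control roots, a log2 change of 0.78 ± 0.26 (SE, adjusted p = 0.190 in limma).

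Within both groups the array numbered 1 was the highest for WRKY6. The block removed this shared part of the spread, and the SE fell to 0.16 at the same change (adjusted p = 0.0381). Same-numbered arrays differed by 0.47, 1.14 and 0.71. All 3 pairs were higher in boric acid, which again follows from groups that do not overlap. The arrays numbered 1 also had the widest drop of actin signal from the 3′ to the 5′ end, which grows as RNA degrades. This drop was 2.60 to 2.96 log2 units on them, against 1.23 to 1.71 on the others. Its part in the values of WRKY6 was not tested. Without both arrays numbered 1 the change of WRKY6 was 0.93 (adjusted p = 0.0250), and without control 1 alone it was 1.05 (adjusted p = 0.0288). Without both arrays numbered 2 it was 0.59 (adjusted p = 0.723, and 0.133 with the block). WRKY6 was past the threshold in 4 of 16 alternative fits, and its sign too is fixed by groups that do not overlap.

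**Figure D2:**
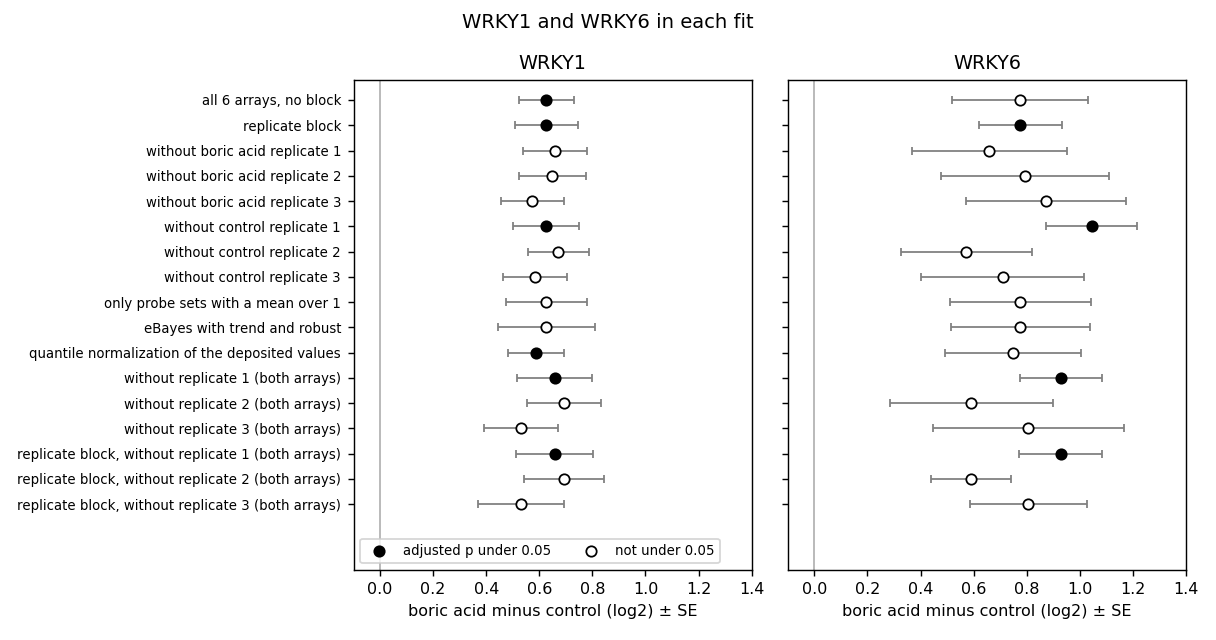
Log2 change of WRKY1 and WRKY6, boric acid minus control, with its SE, in the reported fit (top) and in each of 16 alternative fits; filled points have an adjusted p under 0.05. Changes range from 0.53 to 0.69 for WRKY1 and from 0.57 to 1.05 for WRKY6, and 5 and 4 of the alternative fits pass the threshold.

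Also of group IIb, WRKY42 and WRKY47 gave other values. WRKY42, which like WRKY6 has been linked to the repression of PHO1 in Arabidopsis, had log2 expression values of 0.74, 0.64 and 0.66 in boric acid and 0.57, 0.95 and 0.47 in control roots. Its boric acid arrays lay within the range of the control arrays. The change was 0.015 ± 0.146 (SE, adjusted p = 0.980), with a 95% confidence interval from -0.34 to 0.37. WRKY47 is the namesake of a Brassica napus gene linked to adaptation to low boron. Its values were 1.49, 2.17 and 1.79 in boric acid and 2.53, 1.58 and 2.23 in control roots. The groups overlapped, and pairs numbered 1 and 3 were lower in boric acid while the pair numbered 2 was higher. The change of WRKY47 was -0.30 ± 0.28 (SE, adjusted p = 0.706), with an interval from -0.98 to 0.39. The 3 genes of group IIb thus spanned changes from -0.30 to 0.78, and differences between their changes were not tested.

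WRKY20, the other group I gene, had log2 expression values of 2.65, 2.43 and 2.67 in boric acid and 1.76, 2.31 and 2.82 in control roots. All 3 boric acid arrays lay within the range of the control arrays, which had the wider spread (SD 0.53 against 0.14, n = 3). The change was 0.29 ± 0.26 (SE, adjusted p = 0.684), with an interval from -0.34 to 0.92 that includes the change measured for WRKY1. It rested on the pair numbered 1, which differed by 0.89, against 0.12 and -0.14 for pairs 2 and 3. Without both arrays numbered 1 the change was -0.010.

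WRKY22, of group IIe, lies downstream of a MAP kinase cascade in the response of Arabidopsis to bacterial flagellin. Its log2 expression values were 1.43, 1.72 and 1.47 in boric acid and 1.76, 1.48 and 1.34 in control roots, and the groups overlapped almost fully. The change was 0.013 ± 0.150 (SE, adjusted p = 0.983), with an interval from -0.35 to 0.37.

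WRKY53, of group III, is an early regulator of leaf senescence. Its values were 0.25, 0.27 and 0.49 in boric acid and 0.76, 0.46 and 0.25 in control roots. The groups overlapped, and several arrays lay close to the TrpnX spots, for which roots hold no matching RNA and which read up to 0.217. The change was -0.15 ± 0.16 (SE, adjusted p = 0.723), with an interval from -0.53 to 0.22. A change of a transcript so near background would be understated on this scale.

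NAC014, the only NAC gene measured under such a name, is among the NAC factors with a membrane anchor. Its log2 expression values were 2.15, 1.62 and 2.07 in boric acid and 1.70, 2.61 and 2.47 in control roots. The groups overlapped, and control 1 lay below boric acid 1 and 3. The change was -0.32 ± 0.27 (SE, adjusted p = 0.666, and 0.579 with the block), with an interval from -0.97 to 0.34. The pair numbered 1 was higher in boric acid by 0.45, and pairs 2 and 3 differed by -0.99 and -0.41. At an unadjusted p under 0.05, 0 of 1 NAC genes were called in limma. With 1 gene, no statement on the NAC family can be made.

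**Figure D3:**
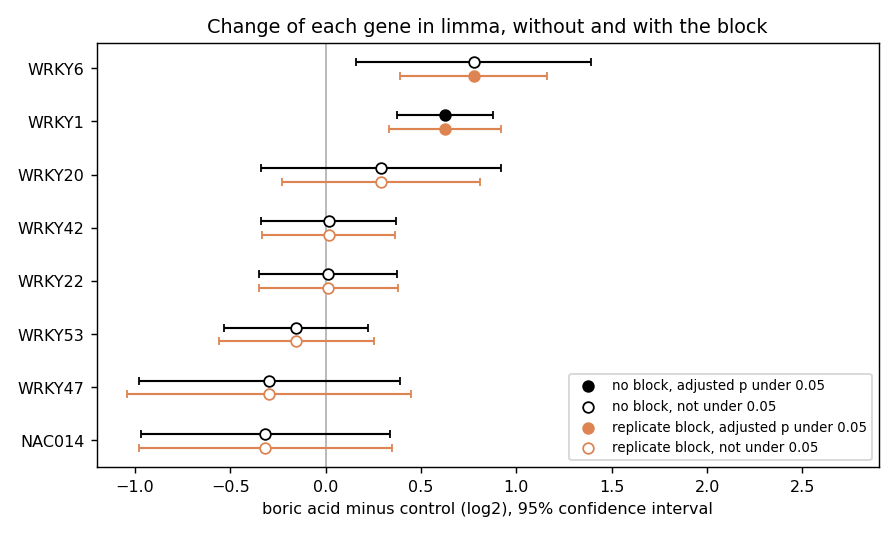
Log2 change of the 8 members, boric acid minus control, with the 95% confidence interval in limma without (black) and with (orange) the replicate block; filled points have an adjusted p under 0.05. WRKY1 is filled in both fits and WRKY6 with the block, and the intervals of the other 6 include 0.

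By family, 5 of 7 WRKY genes and the NAC gene had a mean over 1 across the 6 arrays and were counted as expressed above background, against 51.8% of all genes. Just above this limit was WRKY22, at a mean of 1.53, and just below it WRKY42, at 0.67, with WRKY53 at 0.41. The 5 expressed WRKY genes were above 1 on all 6 arrays. The median change of the 7 WRKY genes was 0.015 and that of the 5 expressed ones 0.29, against -0.015 for all 13355 genes and 0.011 for the 6924 genes with a mean over 1. Of the 7 WRKY genes, 5 had a change above 0 and 2 below it, against 6195 of all 13355 genes above 0. Among these 5 were WRKY22 and WRKY42, with changes of 0.013 and 0.015. Their signs turned in 8 of 16 and 7 of 15 alternative fits. Groups I (2 genes) and IIb (3 genes) held the 2 genes called with the block, and the members of groups IIe and III had changes of 0.013 and -0.15. Of the 7 WRKY genes, 5 lie on chromosome 4 by their locus numbers, and WRKY1 and WRKY6, on chromosomes 2 and 1, are not among them. With 7 of 72 WRKY loci measured under such names, no pattern by chromosome can be read from this.

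**Figure D4:**
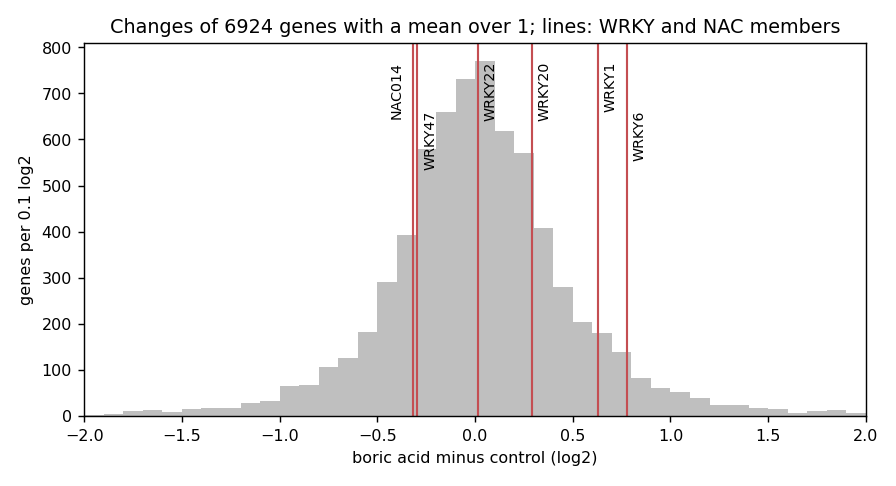
Distribution of the log2 change, boric acid minus control, over the 6924 genes with a mean over 1, drawn from -2 to 2 (56 genes lie outside), with red lines at the 6 members above that mean. WRKY1 and WRKY6 lie in the upper flank at 0.63 and 0.78, and the other 4 lie between -0.32 and 0.29.

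Genes that act with WRKY and NAC factors were taken from 8 lists of 95 loci, of which 14 were measured. In these lists 1 gene was called higher and 0 lower, against 1.62% of all genes called higher and 1.09% lower. With the block 4 were called, all higher, against 4.63% of all genes called higher in that fit. The lists were chosen with earlier results of these data known, so setting these counts against the shares is not a test of the lists. No locus was measured for the lists of phosphate genes, of secondary wall and xylem genes and of DNA damage genes. Of the 13 loci listed as MAP kinase or VQ partners of WRKY factors, only IKU1 was measured, a VQ protein gene known from seeds, with a change of -0.05 ± 0.22 (SE, adjusted p = 0.952). Of 20 salicylic acid and defence genes, only SAG101 was measured, a partner of the immune regulator EDS1, with a change of -0.12 ± 0.11 (adjusted p = 0.684).

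The list of mitochondrial stress genes, which lie downstream of the membrane-tethered factors ANAC013 and ANAC017, had 5 of 12 loci measured. AT2G21640 rose by 2.87 ± 0.22 (SE, adjusted p = 0.00431) and was called in all 6 fits without 1 array. The other 4 did not pass, with changes from 0.62 for AT5G09570 to 1.51 for NDB2, an alternative NADH dehydrogenase gene. With the block NDB2 (adjusted p = 0.0281) and AT5G51440 (adjusted p = 0.0372) passed as well. ANAC013 and ANAC017 themselves are not among the 8 members, so their transcripts were not analysed here.

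Of 8 loci for root cap cell death and cell separation, a process under NAC factors of the root cap, 5 were measured and none passed in limma, with none at an unadjusted p under 0.05 other than scpl48. This serine carboxypeptidase-like gene had log2 expression values of 4.76, 5.30 and 5.04 in boric acid and 3.94, 4.01 and 4.37 in control roots. The groups did not overlap, and the change was 0.93 ± 0.18 (SE, adjusted p = 0.0528, and 0.0220 with the block). The other 4 had changes between -0.13 and 0.36. Of 13 senescence and abscisic acid genes, SAG29, a sugar transporter gene, had a change of 0.39 ± 0.14 (adjusted p = 0.226), and BSMT1, a methyltransferase gene of salicylic acid, was near background on all arrays (change 0.10 ± 0.11, adjusted p = 0.740).

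**Figure D5:**
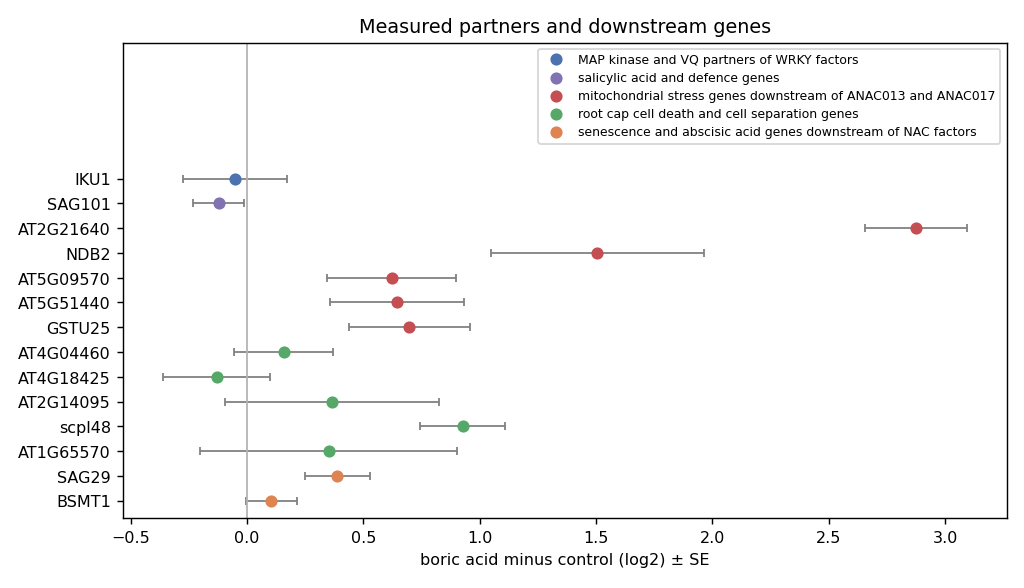
Log2 change, boric acid minus control, with its SE, of the 14 measured genes from the lists of partners and downstream genes, coloured by list. AT2G21640, at 2.87, is the gene past the threshold without the block, and the others lie between -0.13 and 1.51.

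The measured root markers were present, PYK10 at 10.02 ± 0.06 (SD, n = 3) in boric acid and 10.27 ± 0.16 in control roots. EXPA7, a root hair gene, was at 3.76 and 3.74. PYK10 was lower on all boric acid arrays than on all control arrays, a separation found in either direction for 20.0% of all genes. Its change was -0.25 ± 0.12 (SE, adjusted p = 0.364 in limma). The other 7 root markers listed had no named probe set of their own. Of 5 green tissue markers listed, 1 was measured, LHCB4.1, and it was also detected, at 3.93 ± 0.45 and 4.15 ± 0.33. It had no difference past the threshold (adjusted p = 0.784), and its part in the results was not tested. Array medians lay between 1.45 and 1.49, and arrays correlated at 0.966 to 0.992 within groups and 0.958 to 0.979 between groups over probe sets. The number of arrays limits the precision.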

How the data were processed

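Log2 expression values per probe set, made by the authors with RMA per the submitters' processing notes and deposited as 1 table, were used as given; version and parameters are not given in the sources used here. The growth text is the same for all samples, and the control medium follows the series' design text. Of 22810 probe sets, 64 controls were set aside and 22746 were tested. Names came from the array's probe table and, through gene IDs, the RefSeq table of TAIR10.1 (13436 of 13513 probe sets with 1 gene; 503 had several). A gene with several probe sets was given by the one with the highest mean. Boric acid was compared with control with limma 3.58.1 (R 4.3.3; lmFit and eBayes), two-sided, with Benjamini-Hochberg adjustment over all probe sets and a threshold of 0.05. The fitting code was tested on simulated data. P-values set each change against the moderated spread between arrays within groups, with the replicate number also taken out in the blocked fit. An exact permutation test of 3 against 3 arrays cannot go below 0.1, which WRKY1 and WRKY6 reached.

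Same-numbered arrays deviated together from their group means (correlations of 0.608, 0.231 and 0.618 over probe sets, against -0.619 to 0.284 for other numbers, boric acid 3 with control 2 being above the second pair). Each pair was over 0.1, so the replicate number was used as a block in an alternative fit, although the labels do not say what it stands for. Other alternatives left out arrays, tested only probe sets with a mean over 1, used trended and robust moderation, or applied quantile normalization again. All 8 members are named, with every array's value. The members, lists and subgroups were chosen with earlier results of these data known. Sequences are not shown.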

Additional observations from a re-analysis of the deposited data

How the results depend on the processing

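The number of WRKY genes past the threshold was 1, and 2 with the replicate block. It was 0 to 2 without 1 array, 0 to 2 without both arrays of a number, with or without the block, 0 with only probe sets with a mean over 1 tested and 0 with trended and robust moderation; where it was 0 in limma, 1 to 3 genes had an unadjusted p under 0.05. After quantile normalization it stayed at 1. In all these fits no WRKY gene was called lower and the NAC gene was not called. Over all genes 362 passed, and 1047 with the block. With only probe sets with a mean over 1 tested 357 genes passed, and with trended and robust moderation 335. At an unadjusted p under 0.05 these settings gave 1463 and 1923 genes. The loss of WRKY1 there thus came with little change in the count over all genes. That count was 36 to 573 without 1 array and 0 to 809 without both arrays of a number. It was 114 to 1335 when both arrays of a number were left out of the blocked fit. Without the block, it was 0 without number 2 and without number 3 (1057 and 1307 genes at an unadjusted p under 0.05). With a mean over 2 as the limit, 3 WRKY genes counted as expressed. The median change of the WRKY genes was 0.29 over those with a mean over 1, -0.080 to 0.16 without 1 array and -0.043 to 0.18 without both arrays of a number. The block changed no call of a member other than that of WRKY6.

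Of 126 values of single members under alternatives, 23 had the opposite sign, none of them past the threshold. Without both arrays numbered 1, with or without the block, the changes were -0.010 for WRKY20, 0.078 for WRKY47, 0.023 for WRKY53 and -0.060 for WRKY42. Without both arrays numbered 2 they were 0.022 for NAC014 and -0.10 for WRKY22, and without those numbered 3 -0.043 for WRKY22 and -0.073 for WRKY42. Quantile normalization gave -0.0069 for WRKY22. Without 1 array WRKY22 ranged from -0.080 to 0.13 and WRKY42 from -0.081 to 0.16. The cause of these changes was not tested. On arrays, signal over background sets the limit: WRKY42 and WRKY53 were too near background for their changes to be read closely.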

Other observations

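The genes next to the members on the chromosome were read from the RefSeq table, a choice made after the values of the members were seen. Of 16 neighbours, 12 were measured. AT4G23820, next to WRKY53, fell by 0.96 ± 0.16 (SE, n = 3, adjusted p = 0.0321 in limma), and AT4G01730, next to WRKY47, fell by 0.70 ± 0.13 (adjusted p = 0.0471). Of the 12 measured, these 2 were called lower, against 1.09% of all genes, and 0 were called higher, against 1.62% of all genes. With the replicate block 3 fell, against 3.20% of all genes lower in that fit. The third is AT4G23800, on the other side of WRKY53, whose change was -0.87. Its SE was 0.28 in limma without the block (adjusted p = 0.177) and 0.15 in the blocked fit (adjusted p = 0.0256). The measured neighbours of WRKY1 and WRKY6 did not pass in either fit. AT1G33055, next to NAC014, had a change of -1.09 and passed in neither fit. The SE of this change was 1.34 in limma without the block (adjusted p = 0.782) and 0.28 in the blocked fit (adjusted p = 0.0719).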
